A study of Mus musculus with 12 samples.

Results

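The immune fraction of injured mouse cortex was compared between Sema4B-/- and Sema4B+/- mice, gene by gene, 12 h after the wound. It comprised 6 of the 12 RNA-seq libraries of the study, 3 from knockout mice (libraries 7, 9 and 11) and 3 from heterozygote mice (libraries 1, 3 and 5), and it was identified by the fraction and genotype in each library's label. All mice had received a cortical injury, and a square of tissue measuring 3 by 3 mm around the wound was dissociated into single cells. Cells that stuck to a plate coated with secondary antibody alone or to a plate coated against CD45, the surface protein shared by leukocytes, formed the immune fraction, and cells held on an ACSA-2 plate formed the astrocyte fraction. The heterozygotes served as the controls, so that every mouse carried at least 1 altered Sema4b allele and every mouse was injured. Wild-type and uninjured tissue were not analysed here. The labels used here give neither the strain, age and sex of the mice nor which stretch of Sema4b was altered, and they do not say that the libraries came from separate mice, so that the p-values reflect only how these 6 libraries vary, which may be technical.

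Semaphorin 4B is a membrane-bound member of the class 4 semaphorins, a family of guidance molecules that signal mainly through plexins on neighbouring cells and that act in immune cells as well as in the nervous system. After a cortical wound, resident microglia and border macrophages respond first, and neutrophils and monocytes then enter from the blood. These cells sense damage through purinergic, Toll-like and cytokine receptors, signal through NF-kappaB and AP-1, and are held in check by inhibitory receptors whose ligands sit on healthy neurons.

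Sema4b, on mouse chromosome 7 between 80186841 and 80226527 of GRCm38, was a low transcript in this fraction. It stood at 5.83, 2.30 and 1.30 CPM (its reads per 1000000 reads of the library, scaled by the trimmed mean of M-values) in knockout libraries 7, 9 and 11, from 91, 31 and 20 reads, against 8.81, 6.49 and 8.43 CPM in heterozygote libraries 1, 3 and 5, from 108, 84 and 93 reads. The groups did not overlap, and knockout library 7 lay closest to the heterozygotes. The log2 fold change of knockout over heterozygote was -1.32 ± 0.48 (SE), with an adjusted p of 0.270 by edgeR's quasi-likelihood test with Benjamini-Hochberg adjustment. Values below follow the same order of libraries, 7, 9 and 11 for knockouts and 1, 3 and 5 for heterozygotes, in CPM scaled the same way unless stated.

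The libraries held 13595280 to 15135960 reads in knockouts and 11111965 to 13190826 in heterozygotes, without overlap (two-sided exact permutation p = 0.1, the smallest that 3 against 3 allows). Summed over 15 genes, microglia markers reached 7811 to 11468 CPM in knockouts and 12823 to 16381 CPM in heterozygotes. Markers of lymphocytes summed to 27.1 to 39.5 CPM and 28.7 to 47.3 CPM over 13 tested genes. The fraction also carried neuronal transcripts, since 16 neuron markers summed to 8339 to 16846 CPM in knockouts and 4864 to 9870 CPM in heterozygotes. Astrocyte markers summed to 1050 to 2610 CPM and 1294 to 1512 CPM over 18 genes. Knockout library 9 and heterozygote library 5 held both Xist, at 169 and 776 CPM before scaling, and Y-linked reads, at 94.3 and 32.8 CPM, whereas the other 4 libraries held mainly one or the other. The gene counts without both, and the medians of the lists that these libraries moved most, are given with the results.

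Across 15648 genes tested, edgeR called 0 genes higher and 0 lower in knockouts at an adjusted p of 0.05, with a lowest adjusted p of 0.227. An unadjusted p under 0.05 was found for 2284 genes, or 14.6%, of which 1517 (9.69%) were higher and 767 (4.9%) lower. limma-voom called 0 and 0, whereas DESeq2 called 344 higher (2.8% of 12301 genes with an adjusted p) and 55 lower (0.447%). The authors' deposited table holds 167 genes as higher (0.805% of 20749) and 19 as lower (0.0916%), and 184 of these 186 genes were among the 399 that DESeq2 called here. The DESeq2 count depended on single libraries. It was 0 higher and 0 lower without heterozygote library 1, 2 and 2 without heterozygote library 5, 0 and 2 without knockout library 7, and 690 and 255 without heterozygote library 3. It was 586 higher and 133 lower without knockout library 9, 379 and 16 without knockout library 11, and 13 and 10 without libraries 9 and 5 together. Each of the 399 genes kept its direction in each of these settings, by edgeR for the setting without libraries 9 and 5. The genes had been picked as calls on these same libraries, so the kept direction is no separate support for them. A plainer measure was whether the groups overlapped. Every knockout library lay above every heterozygote library for 1664 genes (10.6%) and below for 1453 (9.29%), or 19.9% in all. The counts given below for each list are to be read against these shares, and against the 2.8% and 0.447% that DESeq2 called.

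**Figure D1:**
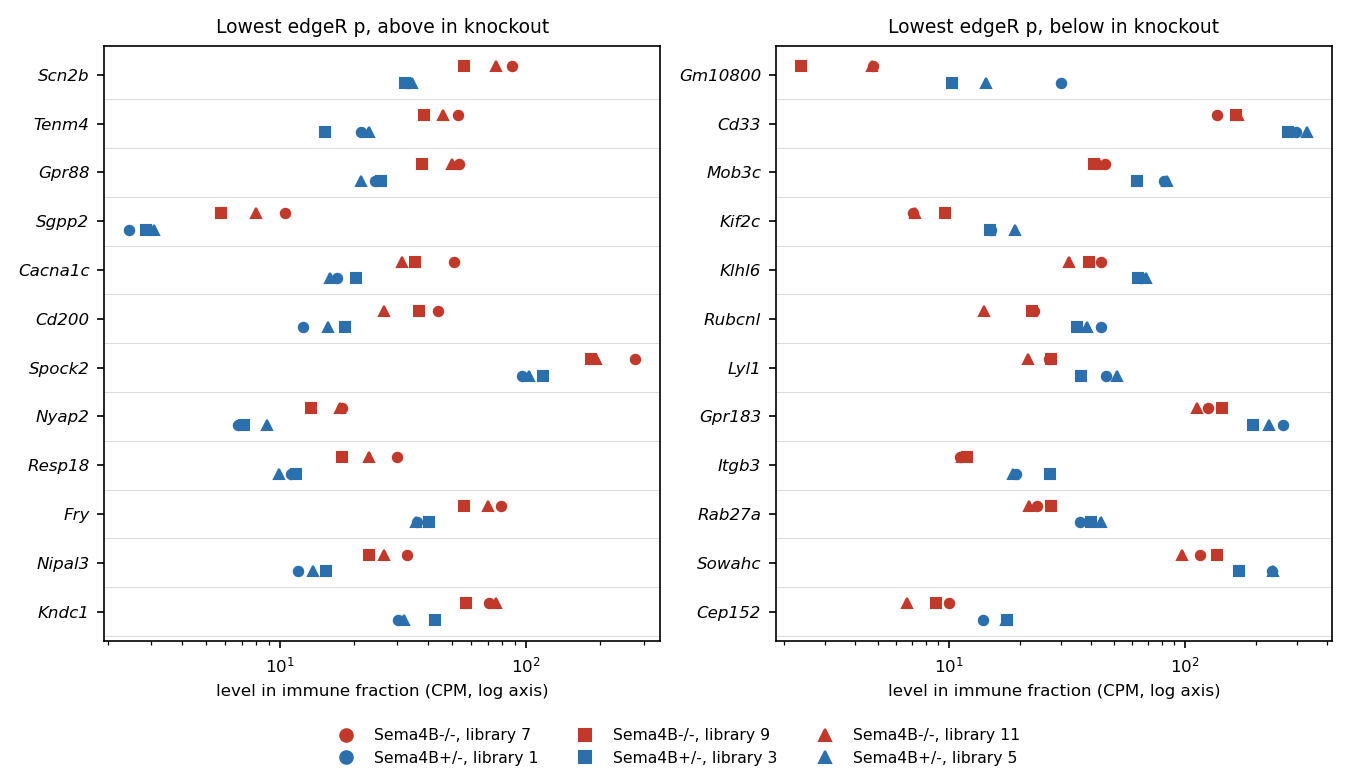
Level of the 12 genes with the lowest edgeR p in each direction, in CPM on a log axis, with 1 point per library; red points are Sema4B-/- libraries and blue points Sema4B+/- libraries. The genes were chosen to have no overlap between the groups, for example Scn2b at 56.0 to 87.6 CPM against 32.3 to 34.5 CPM, and Cd33 at 137 to 169 CPM against 275 to 329 CPM.

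The receptors by which myeloid cells are restrained or engaged lay lower in knockouts. Of 24 tested receptor genes of this kind, 24 had a negative fold change (50.4% of all genes did), 7 had every knockout library below every heterozygote library (9.29% of all genes), and DESeq2 called 2 lower. Their median log2 fold change was -0.55, against -0.0037 over all genes, and -0.65 without libraries 9 and 5. In bulk RNA, fewer cells of a type and less RNA per cell cannot be told apart. Cd33, a sialic acid-binding inhibitory receptor of microglia and other myeloid cells, had 137, 165 and 169 CPM in knockouts and 297, 275 and 329 CPM in heterozygotes. The 2 groups were tight and far apart (log2 fold change -0.93 ± 0.18, DESeq2 adjusted p = 0.0114), with 0.227 as the edgeR adjusted p. Cd300lf, a lipid-binding receptor of myeloid cells, had 89.7, 113 and 73.7 CPM in knockouts and 158, 149 and 276 CPM in heterozygotes (log2 fold change -1.08 ± 0.27, DESeq2 adjusted p = 0.0228). Gpr183, an oxysterol receptor outside the list that steers leukocyte migration, had 126, 144 and 113 CPM in knockouts and 261, 194 and 227 CPM in heterozygotes. For both genes all knockout values lay below all heterozygote values, and Gpr183 reached a DESeq2 adjusted p of 0.0226.

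Cytokine and chemokine receptors had the same direction. Of 26 genes, 24 had a negative fold change and 13 lay below in every knockout library, or 50% against 9.29% of all genes (median log2 fold change -0.55). Csf1r, the receptor that keeps microglia alive, had 2536, 2512 and 1867 CPM in knockouts and 3698, 2993 and 3132 CPM in heterozygotes. Il17ra, the interleukin-17 receptor chain, had 186, 184 and 126 CPM in knockouts and 255, 239 and 249 CPM in heterozygotes. Neither gene overlapped between the groups, at log2 fold changes of -0.51 ± 0.25 and -0.58 ± 0.20, though by edgeR their adjusted p was 0.376 and 0.262. Ccr1, a receptor for inflammatory chemokines, had a larger fold change of -1.01 ± 0.32 with overlapping groups, at 96.1, 123 and 77.0 CPM against 176, 122 and 298 CPM in heterozygotes. Osmr and Il1r1, which many non-immune cells express, were the 2 receptors with positive fold changes, at 0.85 ± 0.58 and 0.27 ± 0.43, and were named after their values were seen.

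Damage sensors lay lower as well. All 22 Toll-like receptor and adaptor genes had negative fold changes, and 11 did not overlap (median log2 fold change -0.46, -0.28 without knockout library 11, and -0.59 without libraries 9 and 5). Tlr2, a sensor of bacterial lipopeptides and of tissue debris, had 1273, 1322 and 769 CPM in knockouts and 1889, 1592 and 1389 CPM in heterozygotes. Tlr6, its partner, had 22.2, 26.7 and 15.0 CPM in knockouts and 37.2, 32.3 and 32.3 CPM in heterozygotes. Knockout library 11 was the lowest of the 6 libraries for both genes. Among 16 purinergic receptor and ectoenzyme genes, 11 had negative fold changes and 7 lay below without overlap (9.29% of all genes did). The ATP-gated channel gene P2rx7 had 38.8, 41.7 and 27.9 CPM in knockouts and 58.1, 47.0 and 70.8 CPM in heterozygotes (log2 fold change -0.70 ± 0.22). Adora3, an adenosine receptor gene, had 45.9, 52.4 and 30.6 CPM in knockouts and 76.4, 69.6 and 71.8 CPM in heterozygotes (-0.76 ± 0.21). Both were at an edgeR adjusted p of 0.242 or below without passing the threshold, and DESeq2 called neither.

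**Figure D2:**
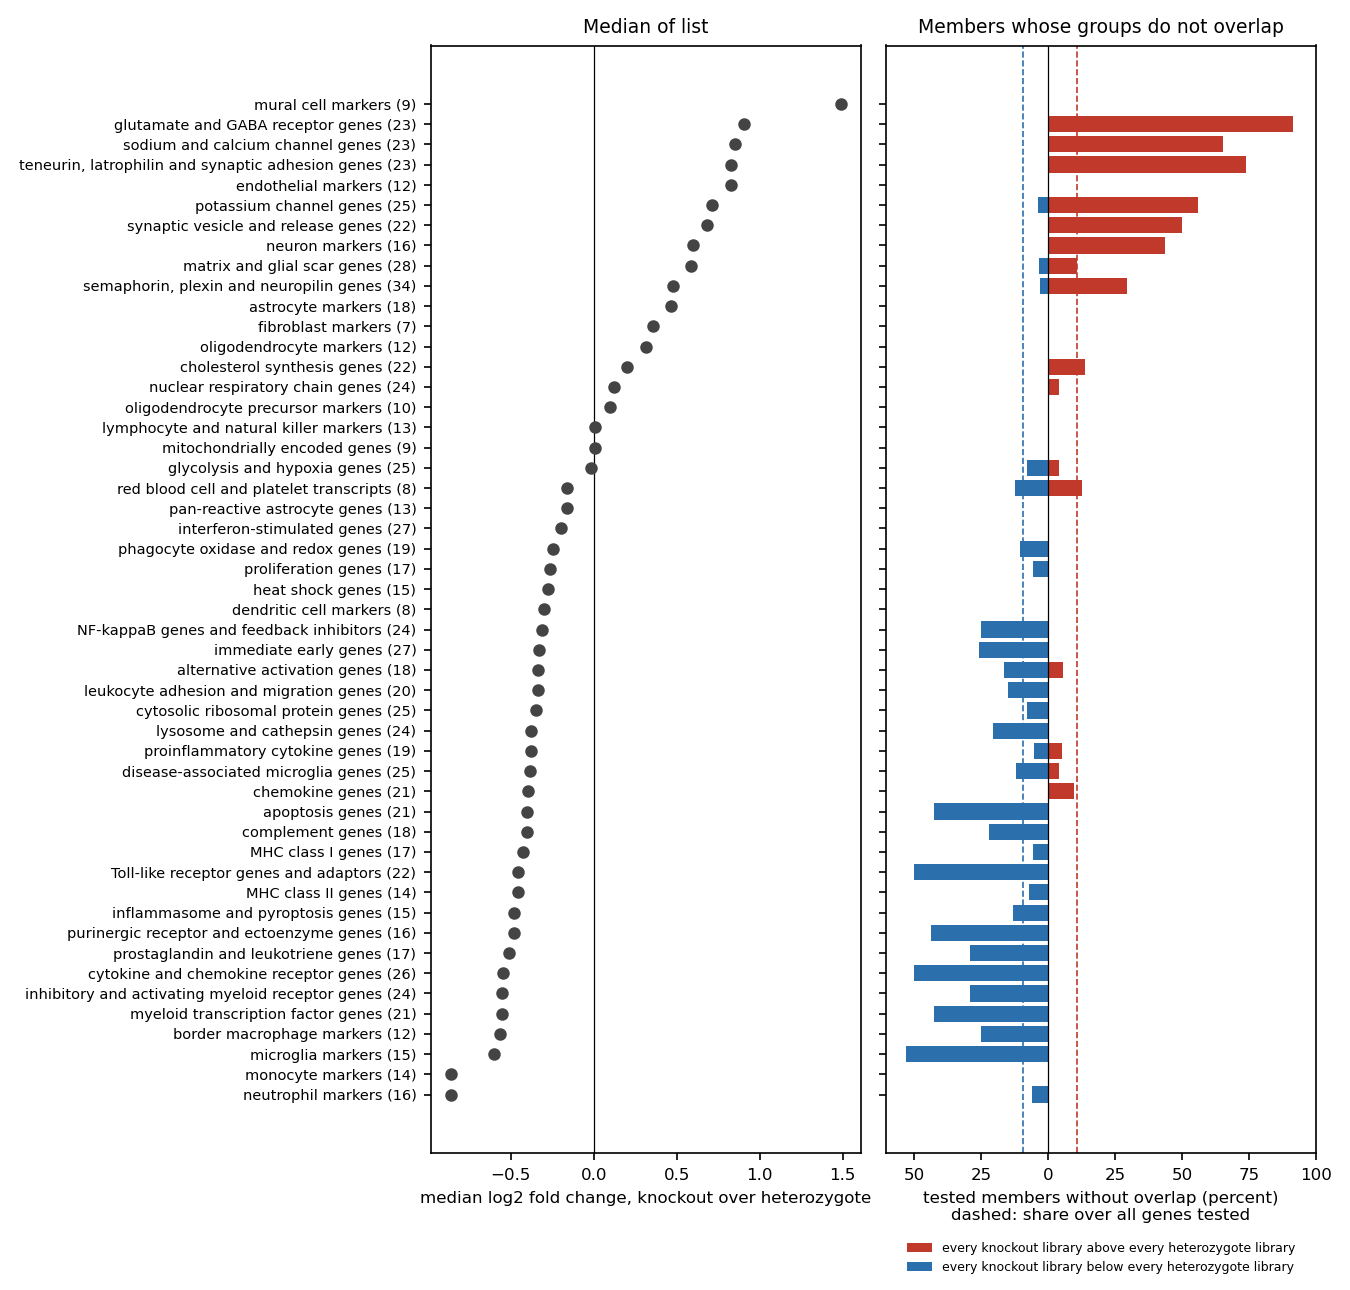
Left, median log2 fold change of knockout over heterozygote for each gene list, with the number of tested members in parentheses; right, the percentage of those members for which every knockout library lay above (red, to the right) or below (blue, to the left) every heterozygote library, with dashed lines at the shares over all genes, 10.6% and 9.29%. Glutamate and GABA receptor genes have a median of 0.90 with 21 of 23 members above, and cytokine and chemokine receptor genes a median of -0.55 with 13 of 26 below.

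Of 19 proinflammatory cytokine genes 15 had negative fold changes, with 1 below and 1 above without overlap, and of 21 chemokine genes 15 were negative, with 0 below and 2 above (9.29% of all genes lay below and 10.6% above). The median log2 fold change was -0.38 for cytokines and -0.40 for chemokines. It was -0.10 and -0.06 without heterozygote library 1, -0.64 and -0.70 without knockout library 9, and -0.63 and -0.71 without libraries 9 and 5. It was also -0.59 for cytokines without heterozygote library 3 and -0.13 for chemokines without knockout library 11. Tnf, the tumour necrosis factor gene, had 749, 2501 and 928 CPM in knockouts and 3555, 1517 and 2379 CPM in heterozygotes. Ccl3, a chemokine that draws monocytes and neutrophils, had 3709, 5973 and 3072 CPM in knockouts and 8404, 5150 and 4476 CPM in heterozygotes. In both genes knockout library 9 exceeded at least 1 heterozygote library, so that the groups overlapped (log2 fold changes -0.83 ± 0.48 and -0.50 ± 0.35). Osm, the oncostatin M gene, had 170 and 164 CPM in knockout libraries 7 and 11, but 310 CPM in library 9, against 437, 301 and 421 CPM in heterozygotes.

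Cx3cl1, Il34 and Cd200, which neurons make and microglia read through their receptors, lay above in knockouts, and these 3 ligands were put together after their values were seen. Cx3cl1, the neuronal chemokine read by the microglial receptor Cx3cr1, had 443, 205 and 244 CPM in knockouts and 126, 159 and 111 CPM in heterozygotes (log2 fold change 1.17 ± 0.30, DESeq2 adjusted p = 0.0215). Cx3cr1 itself had 1811, 1632 and 893 CPM in knockouts and 2137, 1935 and 2063 CPM in heterozygotes. Neither gene overlapped between groups, with the ligand above and the receptor below. Il34, a neuronal ligand of the Csf1r protein, had 25.05, 21.8 and 20.3 CPM in knockouts and 10.8, 11.0 and 13.2 CPM in heterozygotes (0.94 ± 0.19, DESeq2 adjusted p = 0.0179). Cd200, a neuronal surface protein that restrains myeloid cells, had 43.8, 36.9 and 26.4 CPM in knockouts and 12.4, 18.5 and 15.7 CPM in heterozygotes (1.20 ± 0.24, DESeq2 adjusted p = 0.0114). For both ligands every knockout library lay above every heterozygote library. Cd200r1, the receptor gene for Cd200, was low, at 3.27, 4.89 and 2.21 CPM in knockouts and 4.57, 5.71 and 6.16 CPM in heterozygotes, with overlap, and is given although the naming rule did not select it. The neuron marker score, defined below, was higher in each knockout library than in each heterozygote library. It was nearly equal in knockout library 9 (0.35) and heterozygote library 3 (0.34). Its part in the ligand values was not tested.

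Among signalling genes, brakes and transcription factors of the inflammatory response lay lower. Of 24 NF-kappaB genes and feedback inhibitors, 21 had negative fold changes and 6 lay below without overlap, or 25% against 9.29% of all genes. The median log2 fold change was -0.31, -0.14 without heterozygote library 1 and -0.20 without knockout library 11. Tnfaip3, which encodes the ubiquitin-editing brake A20 on NF-kappaB, had 553, 1200 and 500 CPM in knockouts and 1735, 1613 and 1317 CPM in heterozygotes. Nfkbia, the inhibitor that holds NF-kappaB in the cytoplasm and is itself induced by it, had 525, 1393 and 415 CPM in knockouts and 1559, 1175 and 1759 CPM in heterozygotes. In both genes knockout library 9 stood apart from libraries 7 and 11, and for Nfkbia it exceeded heterozygote library 3. The log2 fold changes were -1.05 ± 0.35 and -0.95 ± 0.43, and DESeq2 called Tnfaip3 (adjusted p = 0.0438) but not Nfkbia (0.152). The gene of the NF-kappaB subunit itself, Rela, named after its value was seen, had -0.26 ± 0.18 with overlapping groups.

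Promoters were read from RefSeq tables of build GRCm38.p6, from 250 bases before to 50 bases after each gene's start, for the 2 feedback genes and for Scn2b and Cd33, whose edgeR p was lowest among the named genes above and, apart from the repeat-derived gene model Gm10800, among those below. Capitals mark matches to the kappaB consensus or to the AP-1 motif TGANTCA, searched on both strands, and Tnfaip3 is shown at the first of the 2 starts listed. The windows are chr10:19015361-19015660 on the minus strand for Tnfaip3, chr12:55492598-55492897 on the minus strand for Nfkbia, chr9:45117626-45117925 on the plus strand for Scn2b and chr7:43533122-43533421 on the minus strand for Cd33, each written 5′ to 3′ on the gene's strand.
Tnfaip3: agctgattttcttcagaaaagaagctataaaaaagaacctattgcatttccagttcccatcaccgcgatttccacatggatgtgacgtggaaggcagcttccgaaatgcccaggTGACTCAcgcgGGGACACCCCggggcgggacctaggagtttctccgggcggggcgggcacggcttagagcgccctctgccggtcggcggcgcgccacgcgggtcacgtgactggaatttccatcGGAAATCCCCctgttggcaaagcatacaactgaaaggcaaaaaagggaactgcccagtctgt
Nfkbia: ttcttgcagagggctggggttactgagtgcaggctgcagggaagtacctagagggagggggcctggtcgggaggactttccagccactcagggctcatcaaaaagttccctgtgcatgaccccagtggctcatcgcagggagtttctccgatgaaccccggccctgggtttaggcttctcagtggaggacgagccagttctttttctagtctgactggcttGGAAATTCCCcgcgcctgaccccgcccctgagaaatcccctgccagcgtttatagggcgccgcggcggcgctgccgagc
Scn2b: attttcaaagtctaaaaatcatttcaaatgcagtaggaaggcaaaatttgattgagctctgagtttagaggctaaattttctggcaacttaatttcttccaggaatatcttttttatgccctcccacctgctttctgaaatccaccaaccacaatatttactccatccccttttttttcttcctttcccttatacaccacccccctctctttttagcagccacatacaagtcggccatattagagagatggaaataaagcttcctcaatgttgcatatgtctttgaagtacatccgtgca
Cd33: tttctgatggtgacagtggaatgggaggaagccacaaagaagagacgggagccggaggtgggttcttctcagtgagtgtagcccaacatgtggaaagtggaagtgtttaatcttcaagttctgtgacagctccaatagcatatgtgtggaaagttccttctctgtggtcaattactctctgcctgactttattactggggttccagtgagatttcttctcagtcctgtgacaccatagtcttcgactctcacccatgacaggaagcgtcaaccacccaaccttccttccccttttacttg
The Tnfaip3 window held 2 kappaB matches and 1 AP-1 match, which did not share bases, and the Nfkbia window held 1 kappaB match. A kappaB match was present in 10 of 20 promoters found for the NF-kappaB list, in 5 of 11 for the proinflammatory cytokine list (45.5%) and in 1181 of 11377 promoters of all genes tested (10.4%). For the glutamate and GABA receptor list, described below, it was present in 1 of 13 (7.69%). The share varied among lists of either direction, of which the following are examples. Among lists with negative medians it was 8 of 15 for MHC class I genes (53.3%), 1 of 9 for microglia markers (11.1%) and 1 of 16 for prostaglandin and leukotriene genes (6.25%). Astrocyte markers, with a positive median, had 4 of 13 (30.8%). The AP-1 motif was present in 570 promoters of all genes (5.01%). Neither the CRE motif TGACGTCA nor the PU.1 motif GAGGAAGT was found in the 4 windows. A match describes letters in the window, not a bound site.

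Immediate early genes, which code for factors that rise within minutes of a stimulus, had negative fold changes in 23 of 27 cases. Of these, 7 lay below without overlap (9.29% of all genes did), and DESeq2 called 3 lower (0.447% of its genes). The score of the list, the mean over its genes of log2(CPM + 0.5) minus the heterozygote mean, was 0.02, 0.00 and -0.79 in knockouts and -0.05, -0.05 and 0.09 in heterozygotes, so that library 11 alone stood below the heterozygotes. Atf3, a stress-induced factor, had 497, 625 and 436 CPM in knockouts and 960, 851 and 1054 CPM in heterozygotes (log2 fold change -0.88 ± 0.23, DESeq2 adjusted p = 0.0179). Myc, a growth regulator, had 43.1, 67.0 and 21.6 CPM in knockouts and 77.3, 87.1 and 142 CPM in heterozygotes (-1.22 ± 0.38, DESeq2 adjusted p = 0.0408). Junb, a subunit of AP-1, had 1038, 1383 and 748 CPM in knockouts and 1632, 1454 and 2241 CPM in heterozygotes (-0.75 ± 0.30). None of the 3 overlapped, and library 11 was the lowest of the knockouts each time. The activity-regulated neuronal gene Npas4 ran the other way, at 90.0, 38.9 and 9.58 CPM in knockouts and 8.08, 11.4 and 2.36 CPM in heterozygotes (2.65 ± 0.75), although knockout library 11 lay below heterozygote library 3.

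Lineage and activation factors of myeloid cells lay lower in 19 of 21 cases by the sign of the fold change, with 9 not overlapping and 3 called lower by DESeq2. Cebpb, which drives inflammatory gene programmes in macrophages, had 194, 440 and 295 CPM in knockouts and 591, 591 and 814 CPM in heterozygotes (log2 fold change -1.10 ± 0.31, DESeq2 adjusted p = 0.025). Bhlhe41, a regulator of macrophage identity, had 94.2, 124 and 87.2 CPM in knockouts and 158, 158 and 217 CPM in heterozygotes (-0.80 ± 0.21, DESeq2 adjusted p = 0.0356). Lyl1, a transcription factor of early haematopoiesis outside the list, had 26.5, 27.0 and 21.6 CPM in knockouts and 46.3, 36.5 and 51.8 CPM in heterozygotes (-0.84 ± 0.19). The highest knockout value lay below the lowest heterozygote value in all 3. Mef2c, which neurons and microglia both express, had a positive fold change of 0.21 ± 0.21 with overlap.

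Effector lists varied in how uniform they were. All 24 lysosome and cathepsin genes had negative fold changes, 5 without overlap (median log2 fold change -0.38, -0.22 without heterozygote library 1, -0.21 without knockout library 11, and -0.61 without libraries 9 and 5), among them Ctsd, a major lysosomal protease, at 1544, 1708 and 1356 CPM in knockouts and 2430, 2035 and 2042 CPM in heterozygotes. Of 18 complement genes 14 were negative and 4 (22.2%) lay below without overlap, against 9.29% of all genes. C1qb, a subunit of the initiating complex, overlapped between groups at -0.46 ± 0.27. All 17 MHC class I and all 14 MHC class II genes were negative, with 1 of each list not overlapping, a smaller share than over all genes. Leukocyte adhesion and migration genes were divided, with 9 positive and 11 negative of 20 and 3 (15%) below without overlap.

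Enzymes of lipid mediators mostly lay lower. Of 17 prostaglandin and leukotriene genes, 14 were negative and 5 lay below without overlap, or 29.4% against 9.29% of all genes. DESeq2 called 2 lower (0.447% of its genes). Hpgds, the haematopoietic prostaglandin D synthase of microglia, had 162, 140 and 128 CPM in knockouts and 256, 189 and 250 CPM in heterozygotes (log2 fold change -0.69 ± 0.19, DESeq2 adjusted p = 0.0496). Hpgd, which inactivates prostaglandins, had 23.6, 31.8 and 24.9 CPM in knockouts and 36.6, 48.6 and 53.3 CPM in heterozygotes (-0.79 ± 0.20, DESeq2 adjusted p = 0.0477). The groups did not overlap for either enzyme, nor for Ptgs1, the constitutive cyclooxygenase gene, at 187, 185 and 153 CPM in knockouts and 295, 194 and 304 CPM in heterozygotes. Ptgs2, the inducible cyclooxygenase gene, had 394, 757 and 402 CPM in knockouts and 1062, 408 and 749 CPM in heterozygotes. Its groups overlapped only through the knockout library at 757 CPM.

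Further effectors were called singly. Ncf1, a cytosolic subunit of the phagocyte NADPH oxidase, had 422, 447 and 343 CPM in knockouts and 648, 611 and 648 CPM in heterozygotes (log2 fold change -0.65 ± 0.20, DESeq2 adjusted p = 0.0386). Txnip, a thioredoxin-binding protein linked to the NLRP3 inflammasome, had 264, 324 and 160 CPM in knockouts and 535, 384 and 640 CPM in heterozygotes (-1.06 ± 0.30, DESeq2 adjusted p = 0.0262). Hk2, the inducible hexokinase, had 156, 196 and 112 CPM in knockouts and 271, 239 and 298 CPM in heterozygotes (-0.80 ± 0.23, DESeq2 adjusted p = 0.0438). Each of these 3 genes was lower in all knockout libraries than in any heterozygote library. Of their lists, all 15 inflammasome genes had negative fold changes, whereas 6 of 19 oxidase and redox genes and 12 of 25 glycolysis and hypoxia genes had positive ones. Apoptosis genes had 18 of 21 negative and 9 below without overlap, with the survival gene Mcl1 at 748, 965 and 658 CPM in knockouts and 1234, 1142 and 1315 CPM in heterozygotes (-0.64 ± 0.23). Interferon-stimulated genes were mixed, with 10 positive and 17 negative of 27 and 0 that did not overlap in either direction. Their median of -0.19 depended on single libraries, and it ran from -0.63 without knockout library 9 to 0.07 without knockout library 11, with 0.01 without heterozygote library 1 and -0.54 without libraries 9 and 5.

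Several of the lowest p-values on the lower side belonged to genes of other kinds. Kif2c, a mitotic kinesin, had 7.05, 9.63 and 7.23 CPM in knockouts and 15.1, 15.0 and 19.2 CPM in heterozygotes (log2 fold change -1.04 ± 0.23, DESeq2 adjusted p = 0.0215), though its proliferation list held 5 positive and 12 negative genes of 17. Itgb3, the beta 3 integrin subunit of platelets and phagocytes, had 11.1, 11.9 and 11.4 CPM in knockouts and 19.3, 26.9 and 18.7 CPM in heterozygotes (-0.91 ± 0.21). Rab27a, which docks secretory granules, had 23.8, 27.1 and 22.0 CPM in knockouts and 36.1, 40.3 and 44.4 CPM in heterozygotes (-0.73 ± 0.17). The gene model Gm10800 had the largest fold change of these, -2.19 ± 0.43, at 4.80, 2.37 and 4.76 CPM in knockouts and 29.9, 10.3 and 14.4 CPM in heterozygotes. Its sequence is derived from a repeat, so its assignment of reads is uncertain.

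Cell type markers gave the frame for these values. All 15 microglia markers had negative fold changes and 8 did not overlap (median log2 fold change -0.60, and -0.59 without libraries 9 and 5). P2ry12, a homeostatic microglial receptor gene, had 151, 165 and 142 CPM in knockouts and 236, 186 and 331 CPM in heterozygotes, and the border macrophage gene Mrc1 had 127, 105 and 70.0 CPM in knockouts and 158, 177 and 173 CPM in heterozygotes. Neutrophil and monocyte markers were negative in 16 of 16 and 14 of 14 cases, each with a median of -0.86, but 1 and 0 of them lay below without overlap. Without heterozygote library 5 the median was -0.50 for neutrophil and -0.46 for monocyte markers. The same kind of list score placed monocyte markers at -1.22, -0.15 and -1.07 in knockouts and -0.04, -0.53 and 0.57 in heterozygotes. Knockout library 9 thus lay inside the heterozygote range for infiltrating cells and outside it for microglia, which scored -0.45, -0.39 and -0.88 in knockouts and 0.13, -0.27 and 0.14 in heterozygotes. Cytokine receptors scored -0.39, -0.19 and -0.93 in knockouts and 0.08, -0.22 and 0.14 in heterozygotes. NF-kappaB genes scored -0.33, -0.13 and -0.65 in knockouts and 0.27, -0.24 and -0.02 in heterozygotes. Both had the same order of knockout libraries as microglia markers, lowest in 11 and highest in 9. In both, knockout library 9 lay above heterozygote library 3, so that the scores overlapped. The inhibitory and activating myeloid receptor list overlapped in the same way (-0.24 against -0.27). The part of cell composition in the receptor and signalling results was not tested.

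**Figure D3:**
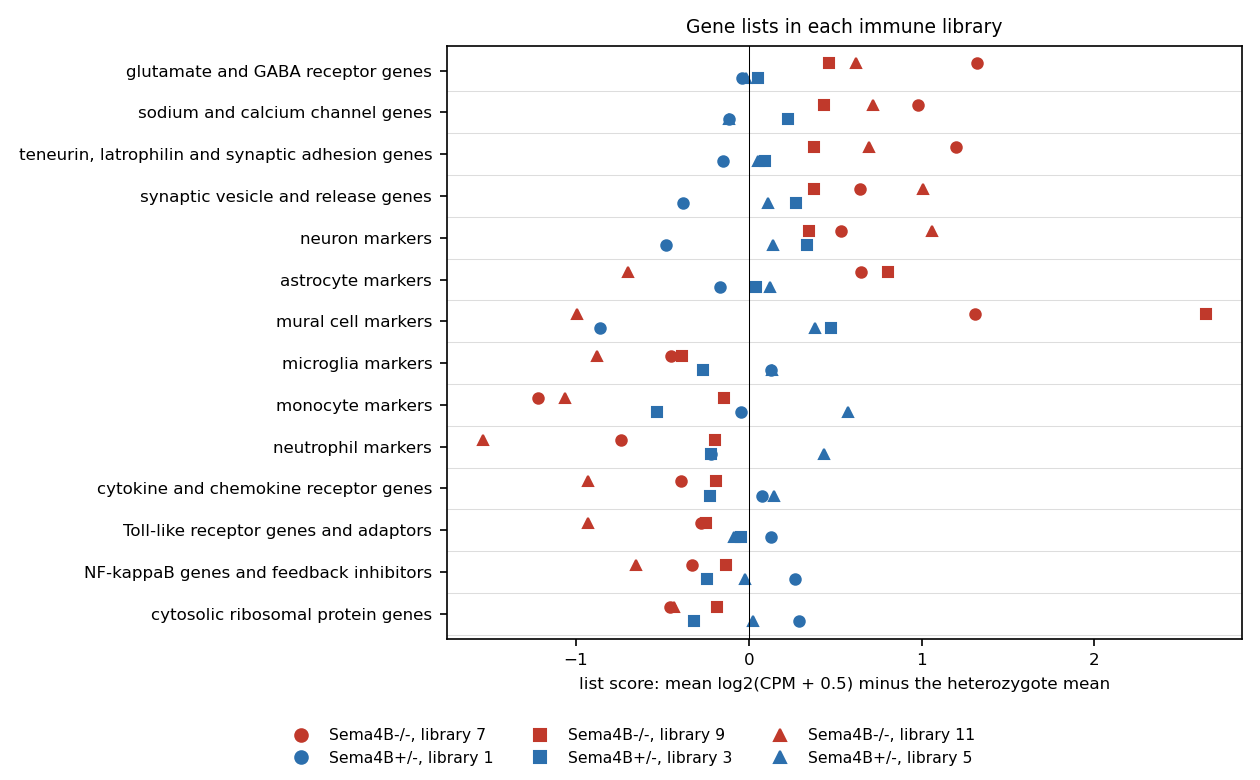
Score of 14 gene lists in each library, as the mean of log2(CPM + 0.5) over the tested members minus the mean of the 3 heterozygote libraries; red points are Sema4B-/- libraries and blue points Sema4B+/- libraries. Scores of glutamate and GABA receptor genes (0.47 to 1.32 against -0.04 to 0.05) and of microglia markers (-0.88 to -0.39 against -0.27 to 0.14) separate the groups, whereas scores of mural cell markers run from -0.996 to 2.64 in knockouts.

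On the higher side the most coherent groups were genes of neuronal membranes. Of 23 glutamate and GABA receptor genes, 23 had positive fold changes (49.6% of all genes did), 21 had every knockout library above every heterozygote library (10.6% of all genes), and DESeq2 called 14 higher (2.8% of its genes). The median log2 fold change was 0.90, and it was 1.01 without libraries 9 and 5. Grin1, the obligate subunit of NMDA receptors, had 361, 215 and 251 CPM in knockouts and 141, 152 and 135 CPM in heterozygotes (0.95 ± 0.22, DESeq2 adjusted p = 0.0193). Gabbr2, a subunit of the metabotropic GABA-B receptor, had 232, 115 and 160 CPM in knockouts and 64.8, 95.4 and 64.8 CPM in heterozygotes (1.17 ± 0.28, DESeq2 adjusted p = 0.0179). The heterozygote libraries were close together for Grin1, whereas for Gabbr2 heterozygote library 3 lay above libraries 1 and 5. Library 7 was the highest of the knockouts in both genes. Gabrb2, a GABA-A receptor subunit gene, owed most of its fold change of 1.92 ± 0.66 to library 7, at 20.4, 3.92 and 3.78 CPM in knockouts and 2.69, 3.17 and 1.54 CPM in heterozygotes.

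Voltage-gated channels followed. Sodium and calcium channel genes were positive in 22 of 23 cases, with 15 above without overlap and 9 called higher by DESeq2 (median log2 fold change 0.85). Scn2b, an auxiliary sodium channel subunit, had the lowest p of the genes named, with 87.6, 56.0 and 75.2 CPM in knockouts and 33.1, 32.3 and 34.5 CPM in heterozygotes (1.13 ± 0.19, edgeR adjusted p = 0.227, DESeq2 adjusted p = 0.00391). Cacna1c, the pore of an L-type calcium channel, had 50.9, 35.2 and 31.5 CPM in knockouts and 17.1, 20.5 and 16.0 CPM in heterozygotes (1.13 ± 0.22). Every knockout value of Scn2b and Cacna1c exceeded every heterozygote value. Of 25 potassium channel genes, 21 were positive and 14 lay above without overlap. The single potassium channel gene below without overlap was Kcnk6, named after its value was seen, at 71.5, 55.6 and 54.9 CPM in knockouts and 92.9, 86.5 and 79.3 CPM in heterozygotes.

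Adhesion molecules that span the synaptic cleft were positive in 23 of 23 cases, with 17 above without overlap and 8 called higher by DESeq2 (median log2 fold change 0.83). Tenm4, a teneurin that binds latrophilins across the cleft, had 52.8, 38.4 and 45.9 CPM in knockouts and 21.3, 15.2 and 23.01 CPM in heterozygotes (1.21 ± 0.21, DESeq2 adjusted p = 0.00391). Lrrtm3, a postsynaptic organiser of excitatory synapses, had 22.7, 14.5 and 18.4 CPM in knockouts and 9.06, 9.80 and 9.97 CPM in heterozygotes (0.95 ± 0.22). The groups were apart for both.

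The presynaptic machinery gave a second pattern. Synaptic vesicle and release genes were positive in 22 of 22 cases, with 11 above without overlap and 6 called higher by DESeq2 (median log2 fold change 0.68, and 0.44 without knockout library 11). Slc17a7, the vesicular glutamate transporter gene of cortical excitatory neurons, had 889, 433 and 613 CPM in knockouts and 248, 360 and 246 CPM in heterozygotes (1.18 ± 0.30, DESeq2 adjusted p = 0.0179). Snap25, which drives vesicle fusion and was the most abundant gene of the list, had 1921, 2184 and 4334 CPM in knockouts and 1097, 2394 and 2217 CPM in heterozygotes (0.56 ± 0.40). Slc17a7 was highest in library 7 and its groups did not overlap, whereas Snap25 was highest in library 11 and its groups did. The 2 orders appeared in the scores too, at 1.32, 0.47 and 0.62 for glutamate and GABA receptors in knockouts against 0.65, 0.38 and 1.01 for vesicle genes. Neuron markers as a list were positive in 16 of 16 cases with 7 above without overlap, and scored 0.54, 0.35 and 1.06 in knockouts and -0.48, 0.34 and 0.14 in heterozygotes. Knockout library 9 and heterozygote library 3 were nearly equal for them.

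The genes DESeq2 called higher carried the first of these orders. Of the 344, library 7 was the highest knockout library for 294 and library 9 the lowest for 293, and every knockout library lay above every heterozygote library for 334. Over all 15648 genes tested, library 7 was the highest knockout library for 5788 and library 9 the lowest for 4123. Of the 55 called lower, all 55 lay below without overlap, library 9 was the highest knockout library for 45 and library 11 the lowest for 44, against 4310 and 6858 of all genes tested. The calls and their lack of overlap come from the same libraries, so the second follows in part from the first. Of the 344 genes 53 belonged to any list used here, 42 of them to the neuronal lists, which held 116 of the 860 listed genes among the 15648 tested. The lists were chosen with earlier results of these data known, so this membership is no separate support for a neuronal group.

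Gene size moved with the higher side. Among 1278 genes whose annotated span on the genome exceeded 150 kb, 26.9% lay above without overlap and 5.48% below, and the median log2 fold change was 0.39. Among 2535 genes under 5 kb the shares were 5.17% and 7.85%, with a median of -0.06. The median of the long genes, relative to the heterozygote mean, was 0.36, 0.16 and 0.34 in knockouts and -0.08, 0.10 and -0.00 in heterozygotes, without overlap. The median span was 46068 bp for genes DESeq2 called higher, 12546 bp for those called lower and 21802 bp for all genes tested. Among neuronal lists the median span was 318858 bp for glutamate and GABA receptors, 290803 bp for synaptic adhesion genes and 39406 bp for vesicle genes. Among lists with negative median fold changes it was 12981 bp for microglia markers and 26756 bp for cytokine and chemokine receptors. For purinergic receptor and ectoenzyme genes, also with a negative median, it was 36614.5 bp, close to that of vesicle genes. Vesicle genes had a median log2 fold change of 0.68 with 11 of 22 above without overlap. All genes of 20 to 50 kb had a median of -0.04 with 9.00% above. The part of length in the values of the lists was not tested.

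**Figure D4:**
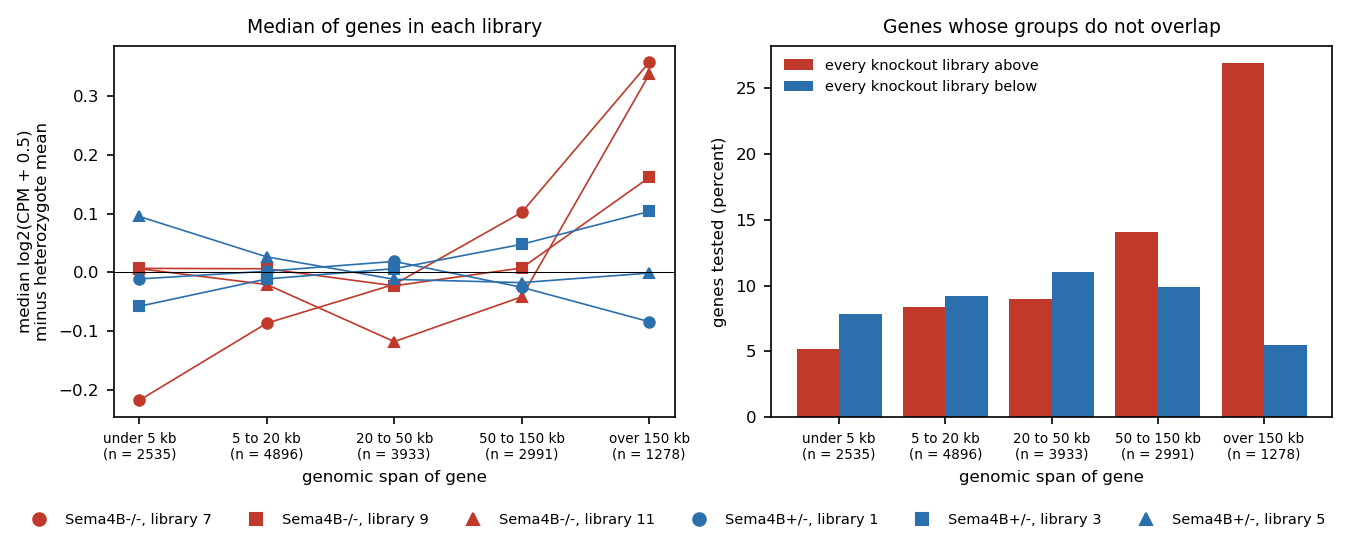
Left, median over genes of log2(CPM + 0.5) minus the heterozygote mean in each library, by genomic span of the gene; right, percentage of genes in each span class for which every knockout library lay above (red) or below (blue) every heterozygote library. Knockout medians of genes over 150 kb run from 0.16 to 0.36 and heterozygote medians from -0.08 to 0.10, and the share above reaches 26.9% in that class.

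Other non-immune cells were also represented, unevenly between knockout libraries. All 18 astrocyte markers had positive fold changes (median log2 fold change 0.46), yet 0 lay above without overlap, and the score was 0.65, 0.81 and -0.70 in knockouts and -0.17, 0.04 and 0.12 in heterozygotes. The astrocyte median was 0.11 without knockout library 9, 0.23 without knockout library 7, 0.83 without knockout library 11 and 0.17 without libraries 9 and 5. Mural cell markers, the genes of pericytes and vascular smooth muscle, had the largest list median, 1.49, with 9 of 9 positive and 0 above without overlap. Their score was 1.31, 2.64 and -0.996 in knockouts and -0.86, 0.47 and 0.39 in heterozygotes, and their median was 0.55 without knockout library 9 and 0.58 without libraries 9 and 5. Abcc9, a pericyte potassium channel regulator, had 4.87, 14.2 and 0.912 CPM in knockouts and 0.897, 0.926 and 0.906 CPM in heterozygotes. Knockout library 11 stood at the heterozygote level while DESeq2 called the gene higher (adjusted p = 0.0167). Plat, the tissue plasminogen activator gene, had 34.6, 53.2 and 9.90 CPM in knockouts and 8.48, 15.0 and 7.79 CPM in heterozygotes, likewise with library 11 inside the heterozygote range. The median of 12 endothelial markers was 0.83 with all libraries and -0.02 without knockout library 9.

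Within the family of the altered gene, 24 of 34 semaphorin, plexin, neuropilin and partner genes had positive fold changes, with 10 above and 1, Sema4b itself, below without overlap. The median log2 fold change was 0.48, and it was 0.27 without knockout library 7 and 0.29 without knockout library 9 or heterozygote library 1. Sema7a, a membrane-anchored semaphorin that signals through integrins and plexin C1, had 94.7, 78.9 and 81.2 CPM in knockouts and 42.7, 57.1 and 43.0 CPM in heterozygotes (0.83 ± 0.18, DESeq2 adjusted p = 0.0226). Sema4f, a class 4 member of neurons and glia, had 27.8, 20.9 and 19.5 CPM in knockouts and 12.6, 12.4 and 10.9 CPM in heterozygotes (0.93 ± 0.21, DESeq2 adjusted p = 0.0226). Both stood above the heterozygotes in every knockout library. The class 4 genes of immune cells, Sema4a and Sema4d, overlapped between groups. Sema4a had 95.1, 64.9 and 55.2 CPM in knockouts and 53.6, 55.4 and 85.3 CPM in heterozygotes, and Sema4d 149, 146 and 129 CPM in knockouts and 218, 118 and 283 CPM in heterozygotes. Plxnb2, a class 4 receptor gene and the most abundant plexin here, had 346, 262 and 206 CPM in knockouts and 409, 341 and 328 CPM in heterozygotes (-0.40 ± 0.23), with knockout library 7 inside the heterozygote range. Sema4a and Sema4d were named after their values were seen.

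Of 22 cholesterol synthesis genes 18 had positive fold changes, with a median log2 fold change of 0.20, and 3 lay above without overlap, a share near the 10.6% of all genes. Sqle, the squalene epoxidase gene, had 32.1, 27.9 and 23.2 CPM in knockouts and 17.3, 21.1 and 19.7 CPM in heterozygotes (0.52 ± 0.19). Its groups did not overlap. Srebf2, the transcription factor gene of the pathway, had 154, 115 and 112 CPM in knockouts and 115, 113 and 100 CPM in heterozygotes, with overlap. All 25 cytosolic ribosomal protein genes had negative fold changes with a median of -0.34 (-0.18 without heterozygote library 1), but 2 of them lay below without overlap, fewer than the share over all genes.

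The astrocyte fraction of the same study, with 3 knockout and 3 heterozygote libraries, allowed the genotype effect to be compared between fractions. The labels do not say whether libraries of the 2 fractions came from the same mice, and the libraries were treated as independent. Astrocyte knockout libraries 8, 10 and 12 held both Xist (344, 71.8 and 93.7 CPM before scaling) and Y-linked reads (40.5, 134 and 107 CPM). Astrocyte heterozygote library 6 also held both (565 and 29.9 CPM), whereas libraries 2 and 4 held mainly one or the other. The part of these mixed reads in the astrocyte values was not tested. The difference in genotype effect between the fractions was tested by an edgeR fit of all 12 libraries, without a term for sex. This edgeR fit called 0 of 16880 genes higher and 0 lower (lowest adjusted p = 0.475), with 1753 genes (10.4%) at an unadjusted p under 0.05. DESeq2 called 3 and 0. Of the 344 genes DESeq2 called higher in the immune fraction, 114 (33.1%) had positive fold changes in the astrocyte fraction, with a median log2 fold change of -0.05. The same share was 51.3% over all genes tested in both fractions. Fry, which encodes a large microtubule-binding protein, had a log2 fold change of 0.87 ± 0.18 in the immune and -0.32 ± 0.10 in the astrocyte fraction, a difference of 1.13 ± 0.20 (unadjusted p = 6.03e-05). Il34 had 0.94 ± 0.19 and -0.22 ± 0.11, a difference of 1.10 ± 0.20 (unadjusted p = 0.000115). Neither difference passed the threshold, each at an edgeR adjusted p of 0.475. Gm10800 and Sema4b were low in knockouts of both fractions, at -1.82 ± 0.40 and -0.88 ± 0.29 in astrocytes.

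**Figure D5:**
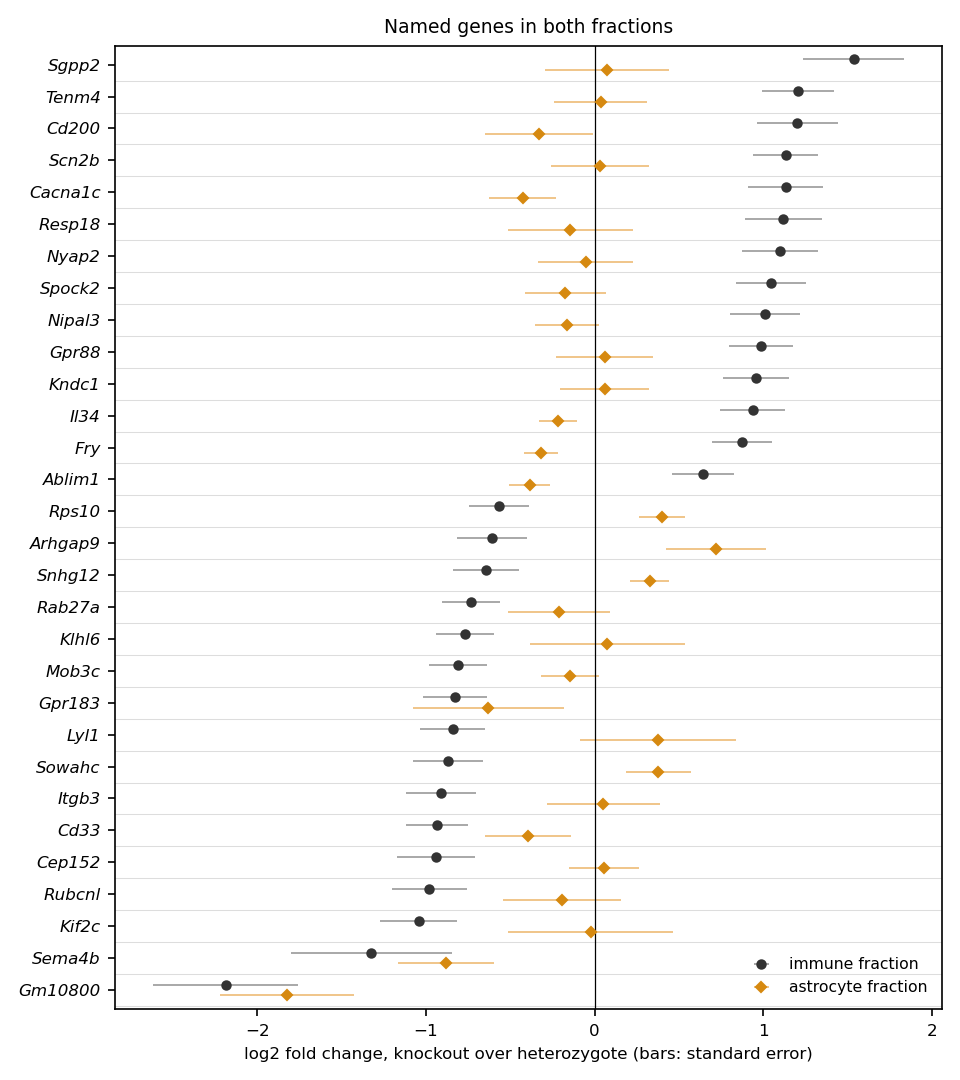
Log2 fold change of knockout over heterozygote, with standard error, in the immune fraction (dark circles) and the astrocyte fraction (orange diamonds) for Sema4b, the genes with the lowest edgeR p and the genes with the lowest p for the difference between fractions. Sema4b and Gm10800 lie left of 0 in both fractions, whereas genes such as Scn2b (1.13 and 0.03) and Cd200 (1.20 and -0.33) have larger values in the immune fraction. These genes were picked for a low p in the immune fraction, so a larger value there follows in part from that choice. None of the differences passed the threshold.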

How the data were processed

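Raw counts per gene, with log2 fold changes and p-values, were deposited by the authors in 1 table per fraction. The submitters' processing notes name cutadapt, STAR, HTSeq and DESeq2 and the build GRCm38. Versions and the gene annotation are not given in the sources used here. The 12 columns of normalized values per sample were not used. Column names gave each library's group but not which sample of the group it was, so libraries are named by the number in the column. Values of the authors' own comparison appear only where they are named as such.

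Counts were tested with edgeR 4.0.16 in R 4.3.3 (quasi-likelihood test, scaling by the trimmed mean of M-values, filterByExpr with a minimum count of 10 and a total of 15, Benjamini-Hochberg adjustment, threshold 0.05), on the 6 immune libraries, and on all 12 libraries for the difference between fractions. DESeq2 1.42.0 and limma 3.58.1 were alternatives. A fold change is knockout over heterozygote, its error is a standard error, and no overlap means that the 3 values of one genotype all exceed the 3 of the other. A further score that the authors deposited per gene, the highest count of any library in rounded form, entered no result. The list score, computed here from the deposited counts, used log2(CPM + 0.5). The fits were tested on simulated data. A count of 3 reads corresponds to 0.198 to 0.270 CPM before scaling, which covers counting error only. Replicates were no copies of each other, with a mean chi-square per gene of 29.1 to 79.9 over 6 pairs.

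Genes were named by a rule: Sema4b, the 12 genes per direction with the lowest edgeR p among those with at least 5 CPM and no overlap, from each list the 2 most abundant and the 2 of lowest p, the largest DESeq2 calls, and the genes of lowest p for the difference between fractions. The members and lists were chosen with earlier results of these data known. Coordinates are those of GENCODE mouse release 21 for 20747 of 20776 gene identifiers. There were 51 identifiers that share a symbol with another, and these were not named. Some genes that the rule selected are not reported here.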

Additional observations from a re-analysis of the deposited data

How the results depend on the processing

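edgeR called 0 genes in either direction under each other scaling, filter, threshold and set of libraries run, and limma-voom called 0, with a lowest adjusted p from 0.114 (without knockout library 9) to 0.642 (without heterozygote library 1). DESeq2 called 344 higher and 55 lower, and 3 higher for the difference between fractions. DESeq2 with each library left out, chosen after seeing the data, called 0 to 690 higher and 0 to 255 lower. Without knockout library 9 and heterozygote library 5 together, also chosen after seeing the data, it called 13 and 10, and edgeR had 382 genes lower at an unadjusted p under 0.05. That last count was 767 with all libraries, 506 under total-count scaling, 1771 in a fit of all 12 libraries and 315 to 1209 with 1 library left out, while the count higher was 1517 and ran from 843 to 1777 with 1 library left out. With a term for sex, read from Xist and Y-linked transcripts, the counts were 1832 higher and 1001 lower. For the difference between fractions, total-count scaling gave 1762 higher and 200 lower, and leaving out 1 library gave 702 to 1591 and 269 to 1081. The cause of these shifts was not tested, beyond the smaller number of libraries where some were left out. The counts of genes without overlap, 1664 above and 1453 below, were 1899 and 1086 under total-count scaling, which moved the median of all genes to 0.07. Fold changes of 2 genes named in the report changed sign: Il1r1 ran from -0.36 (without knockout library 9) to 0.62, and Sema4a from -0.10 (without knockout library 7) to 0.39. No paired analysis was possible because the labels give the groups no shared replicate numbers and tie no libraries to the same mouse.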

Other observations

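Heat shock genes and matrix genes were not part of the comparisons above. Of 15 heat shock genes 12 had negative fold changes, among them Hspa1b, an inducible chaperone whose near-identical copy makes its read count uncertain, at 141, 231 and 191 CPM in knockouts and 359, 190 and 710 CPM in heterozygotes, with overlap. Of 28 matrix and glial scar genes 19 were positive, with a median log2 fold change of 0.58, and of 0.32 without knockout library 9. Ncan, the neurocan proteoglycan gene, had 109, 71.3 and 69.4 CPM in knockouts and 43.8, 53.0 and 48.0 CPM in heterozygotes and was called higher by DESeq2 (adjusted p = 0.0423). Adamts1, a protease that cleaves such proteoglycans, had 300, 356 and 218 CPM in knockouts and 544, 432 and 695 CPM in heterozygotes and was called lower (adjusted p = 0.0264). Neither of these 2 genes overlapped between the groups.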
